A study of Mus musculus with 9 samples.

Results

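The ephrin, Eph, Slit, Robo and srGAP genes were followed in whole mouse kidneys at the embryonic stage E15.5. They were taken by gene name: ephrin ligands (*Efna1* to *Efna5* and *Efnb1* to *Efnb3*), Eph receptors (*Epha* and *Ephb* followed by a number), *Slit1* to *Slit3*, *Robo1* to *Robo4* and *Srgap1* to *Srgap3*. The rule found 32 genes among the 24138 loci of the deposited table, and it used no measured value. Of these, 27 had a mean of at least 1 FPKM over the 9 libraries, the minimum for calling a gene expressed. FPKM, a fragment count per kilobase of transcript, is scaled to transcript length and library size, so levels of different genes are compared on this scale.

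Ephrins and Eph receptors are both held at the cell surface, and contact between a cell with an ephrin and a cell with an Eph receptor signals into both cells, often so that the cells repel each other. Slits are secreted proteins that bind Robo receptors, and srGAP proteins link Robo receptors to the cytoskeleton. Both systems were first studied in growing axons, and both also act in blood vessels: ephrin-B2 marks arteries and its receptor EphB4 marks veins. In the kidney, Slit2 and Robo2 restrict where the ureteric bud grows out.

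The study asked how loss of netrin 1 (*Ntn1*), a secreted guidance ligand, from the stroma changes the kidney. There were 3 genotypes with 3 kidneys and 3 libraries each. *Foxd1GC/+;Ntn1fl/fl* kidneys (MUT) carried 1 *Foxd1* allele with an inserted GFP-Cre and 2 floxed *Ntn1* alleles. *Foxd1GC/+;Ntn1fl/+* kidneys (HET) carried the same Cre allele and 1 floxed *Ntn1* allele, and *Ntn1fl/fl* kidneys (WT) had no Cre and both *Ntn1* alleles floxed. The Cre is driven by *Foxd1*, a gene of stromal progenitors, so recombination is limited to cells of that lineage, and the Cre insertion removes 1 *Foxd1* allele in both MUT and HET. The RNA came from whole kidneys, so fewer cells of a type and less RNA per cell cannot be told apart.

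Libraries are named by genotype and number. *Ntn1* stood at 17.8 to 28.9 FPKM in WT, 12.0 to 16.5 in HET and 10.8 to 16.5 in MUT, so it was lower in both Cre genotypes than in WT and overlapped between MUT and HET. Its level therefore does not check the MUT and HET labels against each other. How many reads each library holds is unknown, and the relative depth judged from the lowest FPKM steps differed by up to 2.24 times between libraries. HET-2 stood apart, with liver markers summing to 715 FPKM against 28.6 to 53.8 in the other libraries. *Xist*, the transcript of the inactive X chromosome, stood at 173 FPKM in MUT-1 and 187 in HET-3 and at most at 1.25 in the other libraries, so those 2 libraries came from female kidneys, and WT held none. All listed markers of stroma, nephron progenitors, ureteric bud, podocytes and endothelium reached a mean of 1 FPKM.

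The letters upstream of 4 genes are shown because their 3 MUT libraries all lay above the 3 HET libraries and no annotated exon overlaps the window. Each window holds the 250 bases before the RefSeq transcription start, written 5′ to 3′ on the strand of the gene, with build GRCm38.p6. Capitals mark the GC box GGGCGG or its reverse complement, a motif known to bind Sp1-type factors.
Srgap1, chr10:122047316-122047565, minus strand: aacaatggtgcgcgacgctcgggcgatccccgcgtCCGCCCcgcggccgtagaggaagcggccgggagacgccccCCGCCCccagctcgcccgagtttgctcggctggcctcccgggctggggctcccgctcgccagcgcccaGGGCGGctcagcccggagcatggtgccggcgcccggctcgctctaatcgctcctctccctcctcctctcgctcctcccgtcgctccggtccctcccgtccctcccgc
Efnb2, chr8:8661243-8661492, minus strand: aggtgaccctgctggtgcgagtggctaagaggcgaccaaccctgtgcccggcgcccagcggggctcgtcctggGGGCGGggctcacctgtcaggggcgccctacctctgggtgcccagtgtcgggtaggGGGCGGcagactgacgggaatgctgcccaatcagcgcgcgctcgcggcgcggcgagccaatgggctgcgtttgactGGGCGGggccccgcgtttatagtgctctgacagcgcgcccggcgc
Efna2, chr10:80179232-80179481, plus strand: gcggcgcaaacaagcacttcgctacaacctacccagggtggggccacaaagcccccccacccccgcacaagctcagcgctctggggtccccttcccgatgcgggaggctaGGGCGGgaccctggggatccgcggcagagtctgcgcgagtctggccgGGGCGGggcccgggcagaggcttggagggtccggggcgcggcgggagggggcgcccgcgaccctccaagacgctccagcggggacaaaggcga
Robo1, chr16:72662899-72663148, plus strand: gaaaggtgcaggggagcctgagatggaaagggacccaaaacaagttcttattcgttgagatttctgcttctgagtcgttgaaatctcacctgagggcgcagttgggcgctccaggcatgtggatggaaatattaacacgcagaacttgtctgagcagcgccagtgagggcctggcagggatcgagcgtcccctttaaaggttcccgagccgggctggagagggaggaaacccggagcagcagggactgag

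*Srgap1* and *Efnb2* each held 3 GC boxes, *Efna2* held 2 and *Robo1* held none. The window of *Slit3*, of which 232 bases lie in an annotated exon, held 6 and is not printed. A RefSeq window was found for 25 of the 27 expressed genes, and 17 of these (68%) held a GC box, against 32.7% of all 32851 windows of the same length. The TATA box TATAAA was found in 3 of the 25 (12%) and in 12.4% of all windows. TGGGAA, the core bound by the Notch factor RBPJ, was found in 4 of the 25 (16%) and in 21.6% of all windows. Both strands were searched for each motif. The median GC content was 64.8% in the windows of these genes and 52.4% over all windows, so the share with a GC box stood beside a higher GC content. The sets are also unlike. The 25 windows come only from expressed genes, while the set of all windows was not limited to expressed genes and can hold several for the same gene. Whether the windows of these genes differ from those of other expressed genes was not tested.

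All 3 ephrin-B ligands were expressed, and together they gave the highest summed level of the 7 groups. Their FPKM summed to 99.2 in WT, 93.5 in HET and 112 in MUT. *Efnb1*, the X-linked ligand of EphB receptors, had the highest level of the 32 genes, with 57.6 ± 11.8 FPKM in WT, 55.2 ± 3.80 in HET and 65.0 ± 7.71 in MUT (mean ± SD, n = 3 libraries, as for all levels below). *Efnb2* stood at 30.3 ± 8.46, 27.0 ± 1.35 and 34.8 ± 6.26 FPKM in WT, HET and MUT. *Efnb3* was lower, at 11.3 ± 0.923, 11.3 ± 0.294 and 12.4 ± 0.243 FPKM.

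All 5 EphB receptors were expressed. *Ephb4*, the venous receptor for ephrin-B2, led them with 43.7 ± 8.63 FPKM in WT, 42.4 ± 2.31 in HET and 49.3 ± 4.89 in MUT. *Ephb2*, *Ephb3* and *Ephb6*, the last of which lacks kinase activity, had means between 5.65 and 13.4 FPKM over the genotypes. *Ephb1* was the lowest expressed gene of all 27, at 2.69 ± 0.656, 2.48 ± 0.331 and 2.82 ± 0.564 FPKM in WT, HET and MUT. *Ephb4* overlaps *Zan* on the other strand at its annotated end, and the use of strand in counting is not given in the sources used here.

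The 5 ephrin-A ligands, which are anchored to the membrane by a lipid, were also all expressed. *Efna1* stood at 28.7 ± 2.93 FPKM in WT, 28.6 ± 2.93 in HET and 30.4 ± 1.56 in MUT. *Efna4* followed with 24.7 ± 3.08, 26.1 ± 2.75 and 24.1 ± 3.20 FPKM. The genotype means of both genes differed by less than the SD in WT. *Efna2*, *Efna5* and *Efna3* had means from 4.91 to 12.3 FPKM. The deposited row of *Efna2* carries a locus of 672.3 kb that 48 other rows overlap, while the annotated gene spans 10.5 kb. Its value may therefore rest on how the assembly divided that locus.

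Of the 9 EphA receptors, 5 were expressed and 4 were not. *Epha4* was the highest, at 13.4 ± 1.02 FPKM in WT, 12.6 ± 2.12 in HET and 12.9 ± 0.985 in MUT. *Epha7* stood at 10.8 ± 2.01, 9.40 ± 2.35 and 10.6 ± 1.32 FPKM, and *Epha2*, *Epha3* and *Epha1* had means from 4.46 to 8.32 FPKM. *Epha8*, *Epha5*, *Epha10* and *Epha6* had means over 9 libraries of 0.136, 0.0471, 0.0445 and 0.00856 FPKM. *Epha6* was listed at 0 in 2 libraries, HET-1 and MUT-3. *Epha1* shares its locus with *Zyx* on the other strand.

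Among the secreted ligands, *Slit2* was the highest, with 17.8 ± 2.65 FPKM in WT, 15.3 ± 1.51 in HET and 17.2 ± 3.29 in MUT. *Slit3* stood at 6.67 ± 2.45, 5.29 ± 0.769 and 8.54 ± 2.51 FPKM, and *Slit1* at 4.24 ± 0.952, 4.35 ± 0.323 and 4.79 ± 1.16 FPKM. The receptors *Robo2* and *Robo1* lay at similar levels. *Robo2*, the main Slit2 receptor in ureteric bud positioning, had 17.2 ± 1.51, 16.7 ± 2.62 and 18.2 ± 2.62 FPKM in WT, HET and MUT, and *Robo1* had 16.8 ± 4.74, 15.0 ± 0.148 and 18.5 ± 4.22 FPKM. *Robo4*, a receptor of endothelial cells, had 9.32 ± 0.830, 10.2 ± 1.98 and 9.46 ± 1.47 FPKM. *Robo3*, known from commissural neurons, was not expressed by the minimum used, with a mean of 0.125 FPKM over 9 libraries.

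The 3 srGAP genes were expressed in the order *Srgap2*, *Srgap1* and *Srgap3*. *Srgap2* stood at 10.3 ± 0.990 FPKM in WT, 10.2 ± 0.208 in HET and 10.3 ± 1.64 in MUT. *Srgap1* had 8.13 ± 2.37, 6.05 ± 0.398 and 8.23 ± 1.81 FPKM, and *Srgap3* had 3.94 ± 1.02, 3.45 ± 0.476 and 4.48 ± 0.978 FPKM. The 27 expressed genes thus covered levels from percentile 12.1 of the 12915 genes tested (*Ephb1*) to percentile 88.9 (*Efnb1*).

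**Figure D1:**
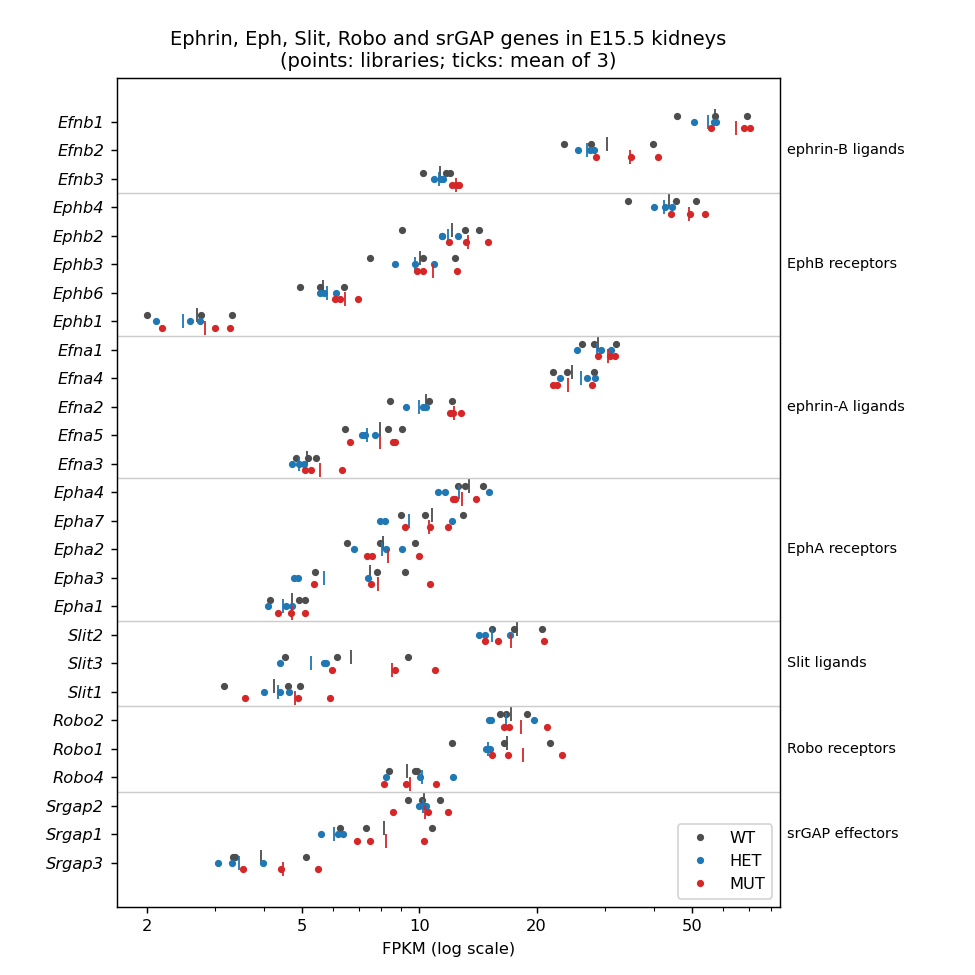
FPKM of the 27 expressed genes on a logarithmic axis, by role, with 1 point per library and a tick at the mean of the 3 libraries of each genotype. The genotypes overlap for most genes, and levels run from *Ephb1*, at 2.01 to 3.31 FPKM over the 9 libraries, to *Efnb1*, at 45.8 to 70.5.

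MUT and HET were compared first, because both carry the Cre allele and differ in the number of floxed *Ntn1* alleles. No gene of the 27 passed the test, but 25 had a higher mean log2(FPKM + 1) in MUT, and for 7 of them all 3 MUT libraries lay above all 3 HET libraries: *Slit3*, *Srgap1*, *Efnb2*, *Efna2*, *Robo1*, *Efna3* and *Efnb3*. The genes lower in MUT by mean were *Efna4* and *Robo4*. The test was limma on log2(FPKM + 1), fitted to all 9 libraries and 12915 genes, and p-values were adjusted by Benjamini-Hochberg and called under 0.05. It called 0 of the 12915 genes (0%), and the smallest adjusted p among the 27 was 0.847 (limma). At an unadjusted p under 0.05, the fit gave 2 of the 27 genes, *Slit3* and *Efna2*, and 3.86% of all genes tested in either direction. That count was 0 without HET-1, without MUT-1 or without MUT-2, and 5 without MUT-3. The share of all genes tested in those fits is not given here, so a shift over all genes cannot be told apart.

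The median log2 fold change of the 27 genes, MUT against HET, was 0.14, beside -0.01 over all genes tested. Over all genes tested, 47.0% had a log2 fold change above 0. The share whose 3 MUT libraries lay above the 3 HET libraries was 4.77% over all genes tested, and 25.9% (7 of 27) among these genes. Since the members are not independent of each other, these shares are descriptions. The log2(FPKM + 1) scale understates the change of the genes with low FPKM.

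*Slit3* had the largest fold change of the 27. Libraries are given in the order of their numbers here and below. Its FPKM was 4.40, 5.69 and 5.77 in the HET libraries and 11.0, 8.65 and 5.98 in the MUT libraries. The WT libraries stood at 9.35, 6.15 and 4.52. MUT-3 lay just above the highest HET library, while WT-1 lay among the MUT libraries and WT-3 among the HET libraries. The log2 fold change, MUT against HET, was 0.57 with an SE of 0.24 and an adjusted p of 0.847 (limma), and the 95% interval ran from 0.05 to 1.10. An exact permutation test gave p = 0.1, the smallest that 3 libraries against 3 can give.

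*Srgap1*, whose protein binds the inside of Robo1, had 5.60, 6.18 and 6.36 FPKM in HET and 10.3, 7.46 and 6.94 in MUT. The WT libraries had 10.8, 7.32 and 6.27 FPKM. WT-1 was the highest of the 9 libraries and WT-3 lay within the HET range. The log2 fold change was 0.37 with an SE of 0.18 (limma adjusted p = 0.847). *Robo1* itself had 15.1, 14.9 and 15.2 FPKM in HET, 23.3, 16.9 and 15.3 in MUT and 21.6, 16.5 and 12.2 in WT. MUT-3 lay barely above the highest HET library, and MUT-1 and WT-1 stood above all others. The log2 fold change of *Robo1* was 0.26 with an SE of 0.19 (limma adjusted p = 0.847).

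*Efnb2* had 28.1, 27.4 and 25.5 FPKM in HET and 40.9, 35.0 and 28.4 in MUT. The WT libraries had 39.8, 27.6 and 23.6 FPKM and spanned nearly the whole range of both other genotypes. The log2 fold change, MUT against HET, was 0.34 with an SE of 0.18 (limma adjusted p = 0.847). *Efnb3*, the third ephrin-B ligand, had 10.9, 11.5 and 11.4 FPKM in HET, 12.7, 12.2 and 12.5 in MUT and 12.0, 11.7 and 10.3 in WT. Its 3 MUT libraries lay above all 6 others, by a small margin. On the log2 scale *Efnb3* differed by 0.13 with an SE of 0.09 (limma adjusted p = 0.847).

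*Efna2* had 10.4, 9.25 and 10.2 FPKM in HET and 12.0, 12.8 and 12.2 in MUT. The WT libraries had 12.2, 10.6 and 8.43 FPKM. The MUT libraries were close together, and WT-1 lay among them. *Efna2* was higher in MUT by 0.28 on the log2 scale with an SE of 0.12 (limma adjusted p = 0.847). *Efna3* had 4.92, 4.73 and 5.07 FPKM in HET, 5.28, 6.35 and 5.08 in MUT and 5.20, 5.44 and 4.82 in WT. MUT-3 and HET-3 were nearly equal, and MUT-2 was the highest of all. The log2 fold change of *Efna3* was 0.15 with an SE of 0.10 (limma adjusted p = 0.847).

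*Epha3* and *Srgap3* had log2 fold changes of similar size, but their libraries overlapped. *Epha3* had 4.78, 4.89 and 7.41 FPKM in HET, 7.52, 10.7 and 5.37 in MUT and 7.82, 5.40 and 9.17 in WT. HET-3 lay above MUT-3 and MUT-2 was the highest of the 9. The log2 fold change of 0.38 had an SE of 0.24 (limma adjusted p = 0.847), and it was 0.16 without MUT-2 and 0.60 without MUT-3. *Srgap3* had 3.06, 3.32 and 3.98 FPKM in HET, 5.49, 4.42 and 3.54 in MUT and 5.12, 3.36 and 3.32 in WT. HET-3 lay above MUT-3 here too, and the log2 fold change was 0.29 with an SE of 0.17 (limma adjusted p = 0.847). The exact permutation test gave p = 0.2 for both genes.

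**Figure D2:**
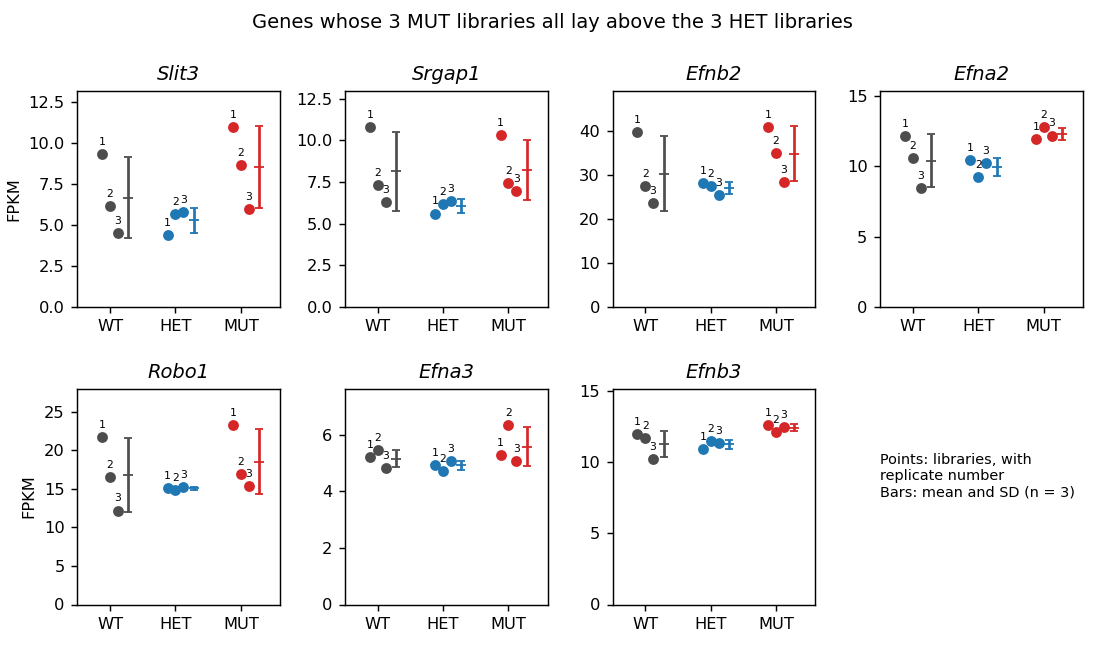
FPKM per library, numbered by replicate, with the mean and SD of 3 libraries, for the 7 genes whose 3 MUT libraries all lay above the 3 HET libraries. WT-1 reached or neared the MUT libraries for *Slit3*, *Srgap1*, *Efnb2*, *Efna2* and *Robo1*, and WT-3 was the lowest WT library for all 7.

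The other 18 expressed genes had log2 fold changes, MUT against HET, from -0.11 (*Efna4*) to 0.23 (*Efnb1*), with overlapping libraries. By role, the 3 ephrin-B ligands, 5 EphB receptors, 5 EphA receptors, 3 Slits and 3 srGAP genes were all higher in MUT by mean, as were 4 of 5 ephrin-A ligands and 2 of 3 Robo receptors. None of these passed the test. *Slit2* and *Robo2*, the pair with the strongest kidney background, had log2 fold changes of 0.14 (95% interval -0.18 to 0.47) and 0.12 (-0.18 to 0.42). *Efnb1* and *Ephb4* had 0.23 (-0.11 to 0.56) and 0.21 (-0.11 to 0.53). These intervals leave room for changes in either direction.

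**Figure D3:**
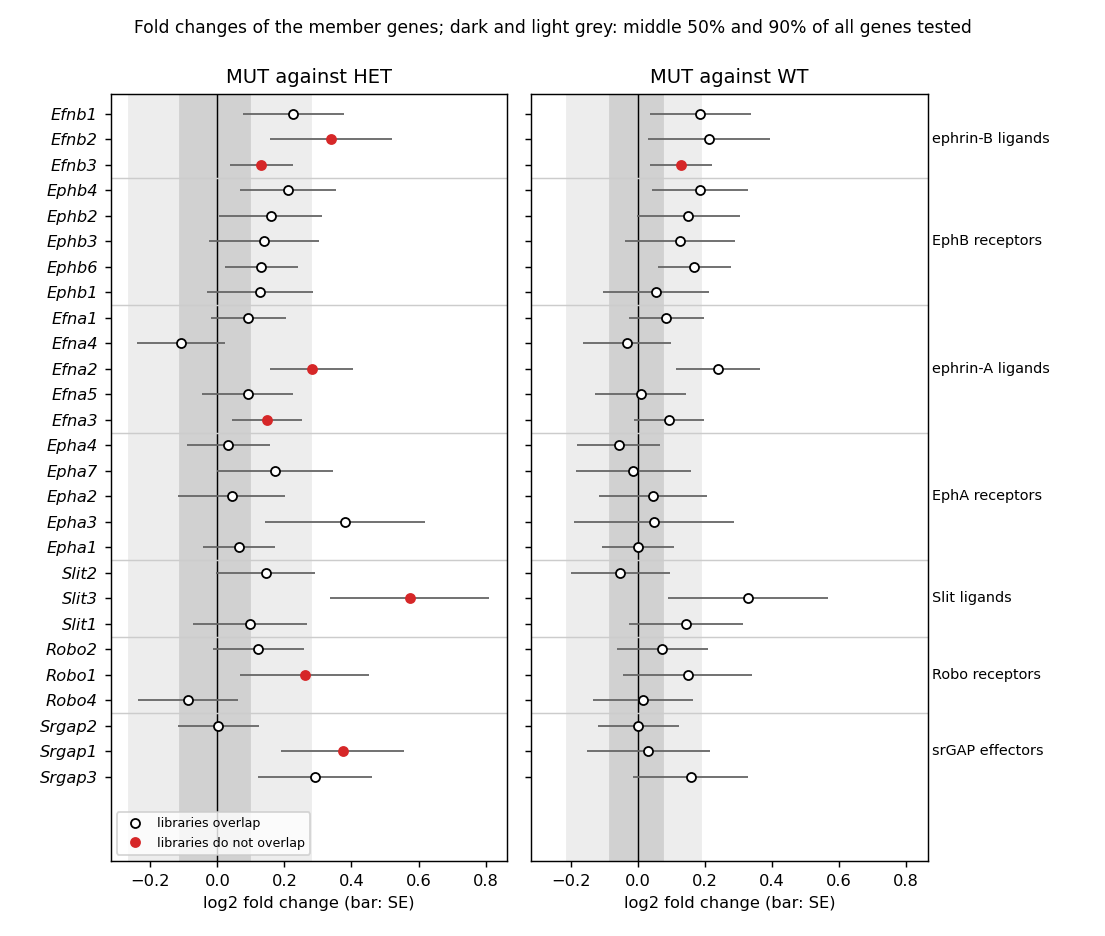
Log2 fold changes with SE of the 27 expressed genes in MUT against HET (left) and MUT against WT (right), with filled points where the 3 MUT libraries lay above the other 3. In MUT against HET, *Slit3* has the largest value, 0.57, and 25 points lie right of 0, beside a middle 90% of all genes tested that runs from -0.27 to 0.28.

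Against WT, which differs from MUT in the Cre and *Foxd1* alleles, the differences were smaller. Of the 27 genes, 22 were higher and 5 lower in MUT by mean, with a median log2 fold change of 0.08 beside -0.00479 over all genes tested, of which 48.2% were higher. limma called 0 of 12915 genes (0%), and none of the 27 had an unadjusted p under 0.05, beside 1.38% of all genes tested. *Efnb3* was the gene with 3 MUT libraries above the 3 WT libraries, as were 1.73% of all genes tested, with a log2 fold change of 0.13 (SE 0.09). *Slit3* again had the largest fold change, 0.33 (SE 0.24), but its libraries overlapped. *Efna2*, *Efnb2*, *Efnb1* and *Ephb4* followed with 0.24, 0.21, 0.19 and 0.18. These values rested on single WT libraries: without WT-3 they were 0.11, 0.053, 0.033 and 0.023, and without WT-1 they were 0.35, 0.42, 0.33 and 0.31. The median of the 27 genes was -0.0013 without WT-3 and 0.17 without WT-1. All 27 had a limma adjusted p of 1.00 in this comparison.

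HET and WT differ in the Cre and *Foxd1* alleles and in the floxed *Ntn1* alleles. Of the 27 genes, 5 were higher and 22 lower in HET by mean, with a median log2 fold change of -0.05 beside 0.000749 over all genes tested, of which 50.2% were higher. limma called 0 of 12915 genes (0%) and gave none of the 27 an unadjusted p under 0.05, beside 1.15% of all genes tested. No gene of the 27 had HET and WT libraries that did not overlap, beside 3.81% of all genes tested in either direction. *Srgap1*, *Epha3* and *Slit3* had the most negative log2 fold changes, -0.34 (SE 0.18), -0.33 (SE 0.24) and -0.25 (SE 0.24). The 3 comparisons share their groups, so a low HET level enters both MUT against HET and HET against WT.

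The genes were high or low together in single libraries as well as by genotype. WT-1 and MUT-1 were each above the 9-library mean for 26 of the 27 genes, beside 46.8% and 47.0% of all genes tested. They were the 2 highest libraries for 17 of the 27. MUT-1 was the highest library for 15 genes, and WT-3 was the lowest for 13. For how many of all genes tested these libraries were highest or lowest is not given here. The median deviation of the 27 genes from their own 9-library means, in log2(FPKM + 1), was 0.16, -0.00120 and -0.19 in the WT libraries. It was -0.06, -0.10 and -0.08 in the HET libraries and 0.23, 0.03 and -0.04 in the MUT libraries. WT-1 thus stood next to MUT-1 at the top of the 9 libraries, and WT-3 was the lowest. *Epha3*, *Epha4* and *Epha7* were the 3 genes of the 27 above their own mean in WT-3, as were 55.8% of all genes tested. They had 9.17, 14.6 and 12.9 FPKM there, the highest of the 3 WT libraries for each.

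**Figure D4:**
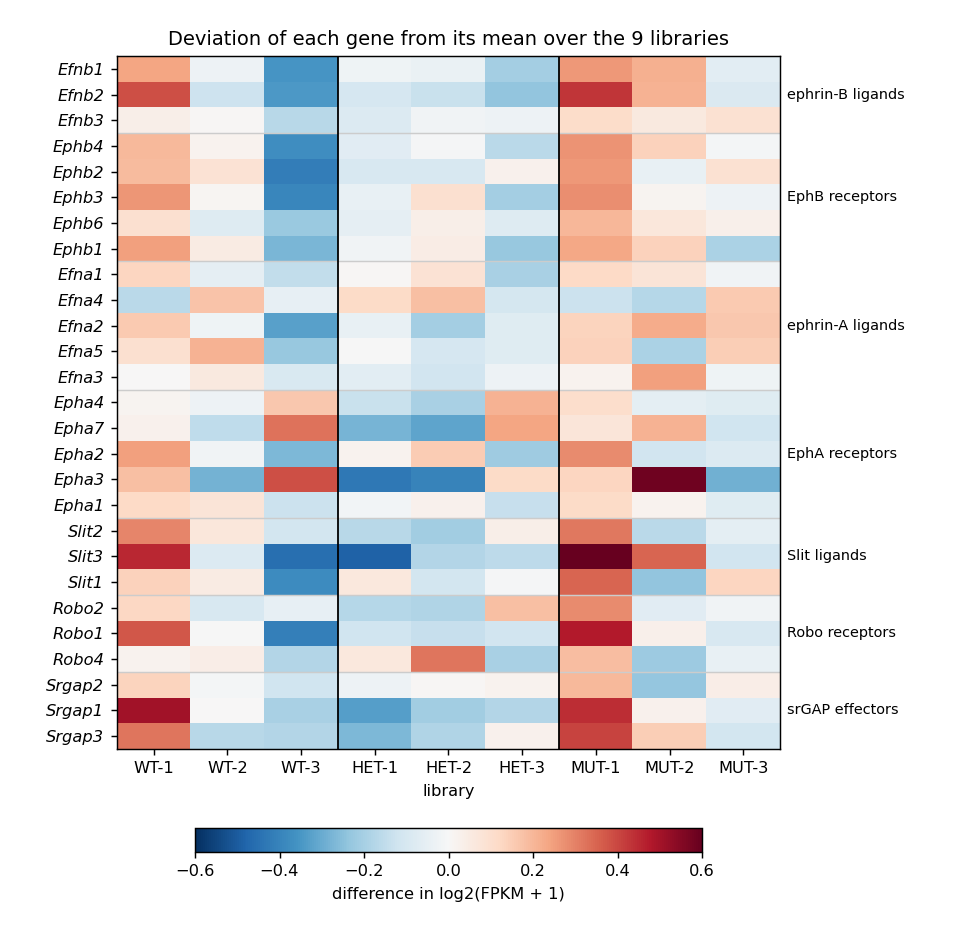
Difference of each gene from its own mean over the 9 libraries, in log2(FPKM + 1), with genes by role and libraries by genotype; colours end at 0.6 in both directions. WT-1 and MUT-1 are above the mean for 26 of 27 genes each, beside 46.8% and 47.0% of all genes tested. The HET libraries are mostly below it, and WT-3 is the lowest library for 13.

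The spread within genotypes differed too. The median coefficient of variation of the 27 genes over 3 libraries was 18.6% in WT, 7.43% in HET and 14.4% in MUT, beside 13.5%, 8.66% and 12.3% over all genes tested. HET was the genotype with the smallest spread for 19 of the 27 genes, and WT the one with the largest for 16. *Robo1* had a coefficient of variation of 0.986% in HET, 28.3% in WT and 22.8% in MUT.

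Libraries also differed by transcript length and GC content. The 27 genes have long transcripts, with a median of 4793 bases beside 3372 over all genes tested, and a GC content of 54.9% beside 49.9%. Over the 25% of genes tested with the longest transcripts, the median deviation was 0.14 in WT-1, 0.15 in MUT-1 and -0.11 in both HET-1 and HET-2. It was 0.02 in WT-3 and 0.05 in HET-3, where the 27 genes stood at -0.19 and -0.08. Over the 25% with the shortest transcripts, it was -0.17 in WT-1, -0.18 in MUT-1, and 0.12 and 0.10 in HET-1 and HET-2. The 25% of genes with the highest GC content had a median deviation of -0.15 in WT-3, 0.05 in both WT-1 and MUT-1, and 0.06 and 0.10 in HET-1 and HET-2, where the 27 genes were low. After a correction for GC content alone, 5 genes had MUT libraries above the HET libraries, beside 5.45% of all genes tested: *Efna2*, *Efnb2*, *Robo1*, *Srgap1* and *Ephb4*. *Slit3*, *Efna3* and *Efnb3* then overlapped. When each library was corrected for GC content and length together, 21 of the 27 genes lay higher in MUT than in HET and the median log2 fold change was 0.09, and 7 genes had MUT libraries above the HET libraries, beside 7.71% of all genes tested. Of those 7, 4 were among the first 7: *Slit3*, *Srgap1*, *Efnb2* and *Efna2*. *Slit3* then had a log2 fold change of 0.49 (limma adjusted p = 0.648).

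**Figure D5:**
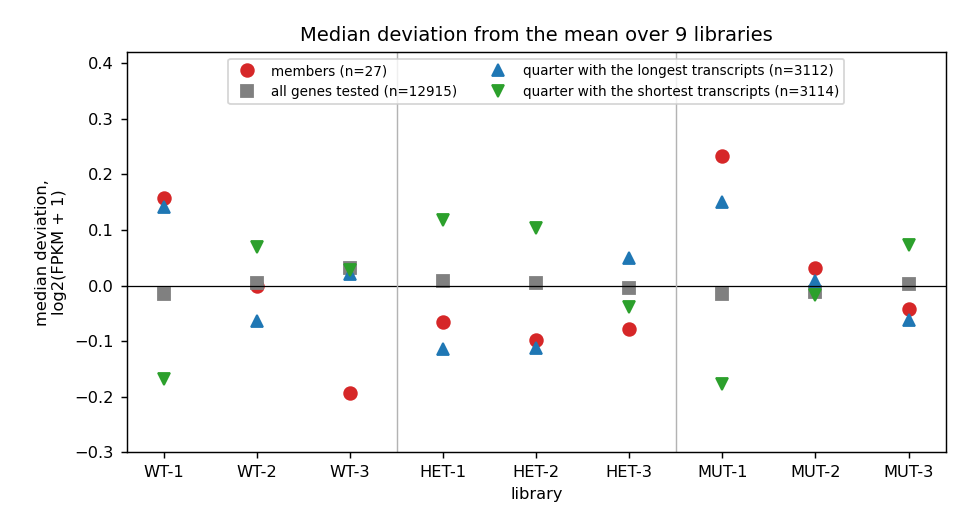
Median deviation from the 9-library mean, in log2(FPKM + 1), for the 27 genes, all genes tested and the 25% with the longest and the 25% with the shortest transcripts. The 27 genes are highest in WT-1 (0.16) and MUT-1 (0.23), the libraries in which long transcripts are highest (0.14 and 0.15) and short ones lowest. In WT-3 and HET-3 the 27 genes are low (-0.19 and -0.08), while long transcripts stand at 0.02 and 0.05.

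The difference between MUT and HET was smaller without MUT-1. In that fit, 21 of the 27 genes were higher in MUT, and the median log2 fold change was 0.08. *Slit3* then had a log2 fold change of 0.39 and *Robo1* of 0.09, against 0.57 and 0.26 with all libraries, while *Efna2* had 0.30. Without both female libraries, MUT-1 and HET-3, 18 of the 27 had the higher mean in MUT, the median log2 fold change was 0.10, and *Slit3* had 0.45. In that fit *Efnb1*, an X-linked gene, had a log2 fold change of 0.12 in MUT against WT, beside 0.19 with all libraries.

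Other genes of these pathways also lay mostly higher in MUT by mean, which 47.0% of all genes tested did. The lists of partners and effectors share 5 genes (*Abl1*, *Abl2*, *Nck1*, *Nck2* and *Pak1*), so their counts are not separate. Libraries of MUT lay above those of HET for 5 of 31 and 4 of 26 genes in them, beside 4.77% of all genes tested. Of the partners and effectors of Eph and ephrin signalling, 31 of 34 were tested, and by mean 26 of them lay higher in MUT and 5 in HET, with a median log2 fold change of 0.14 and no call. Those with 3 MUT libraries above the 3 HET libraries were *Git1* (0.29), *Grb2* (0.28), *Inppl1* (0.27), *Tiam1* (0.25) and *Src* (0.23), which encode adaptors, a phosphatase, a Rac exchange factor and a kinase. Of the partners and effectors of Slit and Robo, all 26 were tested, and 19 were higher and 7 lower, with a median of 0.14 and no call. *Dock1*, a Rac exchange factor (0.32), *Nell2*, a ligand of Robo3 (0.27), and *Evl* (0.25) and *Vasp* (0.22), which bind actin, had separate libraries. WT-1 and MUT-1 were the 2 highest libraries for 8 of these 9 genes. The choice of the 9 genes by MUT above HET keeps HET libraries out of the 2 highest places. That number is therefore partly fixed by the choice and cannot be set against the 17 of the 27. *Nell2* differed, with 4.91 to 6.08 FPKM in WT, 3.45 to 3.91 in HET and 4.07 to 5.31 in MUT.

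Kidney genes genetically tied to Slit2 and Robo2, such as *Gdnf*, *Ret* and *Eya1*, differed less by mean. Of 15 in the list, 13 were tested, and by mean 9 of them lay higher in MUT and 4 in HET, with a median log2 fold change of 0.07 and no call. None had MUT and HET libraries that did not overlap. Against WT, all 13 were higher in MUT by mean, beside 48.2% of all genes tested, with a median of 0.13, and none passed the test. For 1 of the 13, *Six2* (log2 fold change 0.38), the 3 MUT libraries lay above the 3 WT libraries, beside 1.73% of all genes tested. By mean, 10 of the 13 were also higher in HET than in WT, beside 50.2% of all genes tested.

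Markers of several cell types were set beside these results. Endothelial markers, 10 of 10 tested, summed to 298 to 332 FPKM in HET and 309 to 343 in MUT, and 6 were higher and 4 lower in MUT by mean. Stromal markers summed to 824 to 904 FPKM in HET, 921 to 990 in MUT and 751 to 904 in WT, so that the MUT sums lay above the others. Against HET, 7 of the 10 had a higher and 3 a lower mean in MUT, and their median log2 fold change was 0.06. *Col1a1*, a collagen gene, had the highest fold change of them, 0.55, with 143 to 173 FPKM in HET and 214 to 240 in MUT. Without *Col1a1*, the stromal sums of MUT overlapped those of HET and of WT. *Foxd1*, which lost 1 allele to the Cre in both HET and MUT, was lower in MUT than in WT by a log2 fold change of -0.35, without overlap. Smooth muscle markers went the other way, with 6 of 6 lower in MUT than in HET by mean. Their sums were 140 to 192 FPKM in HET, 113 to 144 in MUT and 117 to 141 in WT. Against WT, 6 of 6 were higher in HET and 5 of 6 in MUT by mean, beside 50.2% and 48.2% of all genes tested. The median log2 fold changes against WT were 0.45 in HET and 0.05 in MUT, so HET was the genotype that stood apart. Podocyte markers were higher in MUT by mean for 7 of 7, with overlapping sums of 127 to 170 FPKM in HET and 134 to 204 in MUT. Adrenal and gonad markers summed to at most 1.94 FPKM, and none reached a mean of 1 FPKM. The part of stromal, smooth muscle and podocyte cells in the fold changes above was not tested. Without HET-2, the library with liver RNA, 25 of the 27 genes again had the higher mean in MUT, and their median log2 fold change against HET was 0.14.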

How the data were processed

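Whole E15.5 kidneys of 3 genotypes (3 libraries each) were sequenced from stranded mRNA libraries. Per the submitters' notes and methods, the authors aligned reads with STAR to mm10, assembled transcripts with Cufflinks and deposited FPKM from Cuffdiff, scaled to library size and transcript length. Versions and strand settings are not given in the sources used here. Depth is unknown, so precision rests on the spread of 3 libraries, which come from separate kidneys.

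The deposited FPKM were used as they are. Genes whose mean over 9 libraries reached 1 FPKM were tested on log2(FPKM + 1) in R 4.3.3, using limma 3.58.1 (trend, 2-sided, Benjamini-Hochberg, threshold 0.05) and all 9 libraries in 1 fit. Exact permutation tests were 2-sided. Fold changes, library values and tests are given for genes whose libraries do not overlap between genotypes and for the 5 largest fold changes of MUT against HET and against WT. The members, lists and rules were chosen with earlier results of these data known. Transcript length and GC content came from GENCODE release M21 (96.4% of genes tested) and upstream windows from RefSeq. No block for replicate number was used in this fit, because only 2 of 9 same-number correlations exceeded 0.1 (-0.27 to 0.56). The paper states that the kidneys came from separate crosses. Which cross each library came from is not given in the sources used here, and replicate numbers need not mark it. These correlations therefore cannot show whether libraries share a cross, and an effect of cross was not tested. The steps were tested on simulated data, in which genes varied independently and 50 genes were changed at each fold. For MUT against HET, limma called 4% of 1.2-fold, 56% of 1.5-fold and 100% of 2-fold changes, and 7 of 12715 unchanged genes. In the real libraries genes were high or low together, which the simulation leaves out, so these shares may not hold for them. *Actg2*, a smooth muscle marker, had a log2 fold change of -1.07 in MUT against HET, without overlap, and was not called (limma adjusted p = 0.847). A lack of calls therefore does not exclude small changes or changes of about 2-fold.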

Additional observations from a re-analysis of the deposited data

How the results depend on the processing

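Under 22 alternatives, no gene of the 27 passed the threshold in any comparison, and the smallest adjusted p (limma) was 0.434. In MUT against HET, the number of genes higher ran from 18 to 26 and the median log2 fold change from 0.08 to 0.19, and all named genes kept their direction. Leaving out libraries can only keep or raise the number whose libraries do not overlap, so each such number is given with the share of all genes tested that did not overlap in either direction. In MUT against HET it was 7 to 14 with 1 library left out: 14 without HET-3 (34.3%), 14 without MUT-3 (35.0%) and 11 without MUT-2 (14.5%). Without MUT-1 and HET-3 together it was 16 (47.7%). In MUT against WT, this number was 1 to 6 with 1 library left out (6 without WT-1, 19.3%, and 3 without MUT-1, 11.5%), 2 after the correction for GC content and length (6.12%), 7 without MUT-1 and WT-1 together (27.5%) and 3 without MUT-1 and HET-3 together (11.5%). The median ran from -0.0013 to 0.17. The genes higher in MUT than in WT numbered 13 without WT-3 and 24 without WT-1. HET against WT depended on single libraries most: 2 genes were higher without WT-3 and 18 without WT-1, with 8, 9 and 10 without HET-1, WT-2 and HET-3, and the median ran from -0.17 to 0.046. Quantile normalization gave 9 higher, leaving out MUT-1 and WT-1 gave 18 and leaving out MUT-1 and HET-3 gave 10. Its number without overlap was 0 to 12 with 1 library left out (12 without WT-3, 14.1%; 8 without HET-3, or without MUT-1 and HET-3, 29.7%; 1 without WT-2, 15.3%), 1 after the GC correction (5.34%) and 3 after the correction for GC content and length (6.63%). Leaving out 1 library moved the log2 fold change, MUT against HET, from 0.066 to 0.20 for *Efna3* and from 0.16 to 0.42 for *Srgap3*. The cause of these shifts was not tested. The correction for length, the omissions of 2 libraries and the block with GC correction were chosen after seeing the data.

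With the replicate number as a block, 0 genes were called in each comparison. The medians stayed at 0.14, 0.08 and -0.05 for MUT against HET, MUT against WT and HET against WT. In MUT against HET, 4 rather than 2 genes had an unadjusted p under 0.05 (limma). The share of all genes tested under 0.05 in that block fit is not given here. With the block and the GC correction together, 0 were called and the medians were 0.15, 0.08 and -0.08. MUT-1 and WT-1 had the highest same-number correlation, 0.56, and 2 of 9 libraries correlated best with their own number. Because depth is unknown, the counting error of the genes below 1 FPKM cannot be estimated.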
